A study of Homo sapiens with 8 samples.

Results

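Long intergenic noncoding RNAs (lincRNAs) were followed here in MDAH and SKOV3 epithelial ovarian cancer cells, with and without silencing of the splicing factor SFPQ. The lincRNA content of the array consisted of 6153 probes carrying 6073 transcript names, all of which began with TCONS_, and none of which began with XLOC_ or lincRNA. A probe was counted as detected, and became a member of the set described here, if both arrays of any of the 4 groups measured it well above background. This held for 1316 lincRNA probes (21.4%), out of 29018 detected probes of all kinds among 50599 on the array. By the same rule 19287 of 25219 probes (76.5%) for messenger RNAs with a RefSeq NM_ accession were detected, and these served for comparison.

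The arrays measured 4 groups of 2 samples. MDAH cells (MDAH-2774) and SKOV3 cells, both established lines, were each profiled as controls, labelled as cells with a control shRNA, and after silencing of SFPQ with the shRNAs sh-SFPQ#2 and sh-SFPQ#3, 1 array each. Since the study's methods count a parental culture among the controls where the labels name control shRNA for both, the controls are taken here only as cells that were not silenced. No platinum or other drug is named in the labels. Stable SFPQ-silenced clones could not be obtained because prolonged loss of SFPQ killed the cells, and the time at which the profiled cells were collected is not given in the sources used here. The spread within a silenced group includes any difference between its shRNAs. Nothing in the labels shows separate cultures, so that p-values measure the spread between these samples, which may be technical.

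lincRNAs are transcribed from genomic intervals between protein-coding genes. Most are spliced and polyadenylated like messenger RNAs, yet they are as a class less abundant, more often retained in the nucleus and more restricted in the cell types that make them. SFPQ, the splicing factor proline- and glutamine-rich, binds RNA in the nucleus together with p54nrb (NONO) and PSPC1, and with them it builds paraspeckles on the lincRNA NEAT1. Many short-lived nuclear transcripts are degraded by the RNA exosome, which the NEXT and PAXT adaptor complexes guide to them. The TCONS_ names come from assembled transcripts, and the files used here attach neither a genomic position nor a strand to them.

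Only few of these transcripts had a gene name. A reference table of human genes lists the TCONS_ name of 10 probes as a synonym of a RefSeq gene, and 3 of these were detected (FOXCUT, LINC01374 and THRIL), while the array itself adds a gene name to 3 others, of which 2 were detected (GNASAS and HOTAIR). Probe sequences were not used here. For FOXCUT and LINC01374 the RefSeq promoter window (300 bases around the start of the gene, GRCh38.p14) is shown, because these are the named, detected lincRNAs that were matched in the RefSeq promoter table. CG dinucleotides are in capitals.

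FOXCUT, chr6:1605281-1605580, plus strand: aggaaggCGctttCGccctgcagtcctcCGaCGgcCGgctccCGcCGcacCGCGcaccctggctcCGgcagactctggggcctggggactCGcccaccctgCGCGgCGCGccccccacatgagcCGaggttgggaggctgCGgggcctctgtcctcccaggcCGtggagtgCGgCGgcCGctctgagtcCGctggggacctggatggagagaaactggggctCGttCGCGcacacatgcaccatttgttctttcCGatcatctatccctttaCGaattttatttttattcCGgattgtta

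LINC01374, chr10:89853656-89853955, plus strand: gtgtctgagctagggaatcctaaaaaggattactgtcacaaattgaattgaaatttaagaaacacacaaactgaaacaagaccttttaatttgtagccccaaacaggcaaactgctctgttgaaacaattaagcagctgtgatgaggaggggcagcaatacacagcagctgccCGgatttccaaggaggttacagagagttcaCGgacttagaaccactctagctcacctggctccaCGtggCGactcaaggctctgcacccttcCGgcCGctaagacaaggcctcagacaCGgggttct

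The FOXCUT window held 28 CG dinucleotides, a number that 26.2% of 35116 RefSeq promoter windows of the same length reached, and the LINC01374 window held 7, which 63.2% reached. The start of the RefSeq gene need not be that of the assembled transcript on the array.

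SFPQ itself was examined first. On the log2 scale, with the 75th percentile of each array set to 0 here and below, its signal was 3.64 and 3.91 in MDAH controls and 2.45 and 2.10 in silenced MDAH cells. The SKOV3 values were 4.84 and 4.66 in controls and 3.01 and 2.48 after silencing. The groups did not overlap, and the log2 change was -1.50 (standard error 0.24, adjusted p = 0.0300 from limma) in MDAH cells and -2.01 (standard error 0.24, adjusted p = 0.0220) in SKOV3 cells. Of 6 epithelial markers, EPCAM, KRT7, KRT8, KRT18 and KRT19 were well above background on all 8 arrays and CDH1 was not in SKOV3 controls. Of 4 Müllerian or ovarian markers PAX8 was on all arrays, WT1 was detected in MDAH cells only, MUC16 only in silenced SKOV3 cells and MSLN in no group. Among markers of other cell types, 2 of 3 leukocyte genes (PTPRC and CD14), 1 of 3 endothelial genes (CDH5) and 1 of 4 fibroblast genes (COL1A1) were on all arrays, and CD3E, PECAM1, COL1A2 and LUM were detected in no group. CD14 was higher in MDAH than in SKOV3 controls (log2 difference 1.74, adjusted p = 0.000316) and so was COL1A1 (1.73, adjusted p = 0.00278), while DCN was detected in SKOV3 cells alone. On silencing COL1A1 rose in the average of both lines (1.18, adjusted p = 0.0266), and MUC16 passed there too (fitted change 1.20, adjusted p = 0.0364) with all groups but silenced SKOV3 cells at background. The summed fibroblast signal, in units of the array's 75th percentile, was 0.575 to 0.694 in MDAH controls and 1.19 to 1.58 after silencing, and 0.251 to 0.387 and 0.716 to 0.862 in SKOV3 cells. Of this list only COL1A1 was detected in MDAH cells, and only COL1A1 and DCN in SKOV3 cells, so the sum mostly restates these genes. The leukocyte sum was 0.739 to 0.782 in MDAH and 0.324 to 0.418 in SKOV3 cells, and the endothelial sum lay between 0.146 and 0.289 over all arrays. The part of these genes' source cells in the lincRNA results was not tested. All arrays lay on 1 slide and in 1 scan session, with each line in its own row of the slide, so that position and line cannot be told apart.

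Detection of lincRNAs was highest in MDAH controls. There 1191 of the 6153 lincRNA probes (19.4%) were well above background on both arrays, against 730 (11.9%) after silencing in this line, and 709 and 742 (12.1%) in control and silenced SKOV3 cells. For NM_ probes the shares were 73.6%, 66.6%, 66.3% and 67.1%. The most frequent pattern was detection in all 4 groups, with 529 of the 1316 members (40.2%), and the next was detection in MDAH controls alone, with 356 members (27.1%). Among detected NM_ probes 79.5% were found in all groups and 5.12% in MDAH controls alone.

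The arrays differed in how dim a probe could be and still be called, and this moved with the number of lincRNAs. The lowest log2 signal called well above background was -4.87 and -4.89 on the MDAH control arrays, -4.30 and -3.81 on those of silenced MDAH cells, and between -4.21 and -3.91 on the SKOV3 arrays. The 75th percentile of the signal was 496 and 483 on the MDAH control arrays and 405 and 244 on the silenced ones, whereas it was between 387 and 466 on the SKOV3 arrays. When 1 common floor of -3.81 was used for all arrays, 818 lincRNA probes (13.3%) lay above it on both arrays of MDAH controls, against 719 (11.7%) after silencing in this line, and 731 (11.9%) and 720 (11.7%) in control and silenced SKOV3 cells. Above this floor, 139 lincRNA probes were found in MDAH controls and not in silenced MDAH cells, and 40 the other way round. The corresponding numbers for NM_ probes were 757 and 272. The part of signal strength in these differences was not tested further, and fewer cells making a transcript and less RNA per cell cannot be told apart in such samples.

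**Figure D1:**
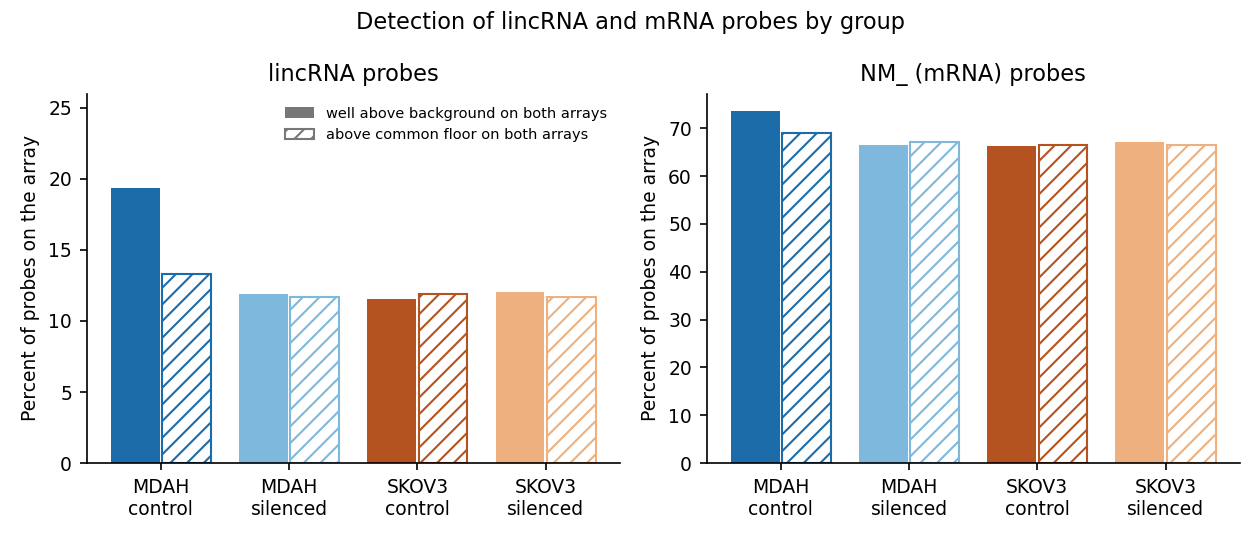
Share of lincRNA probes (left) and of NM_ messenger RNA probes (right) detected in each group of 2 arrays, in percent of the probes of that kind on the array. Filled bars use each array's own call of well above background, and hatched bars use 1 common floor of -3.81 on the log2 scale. With the array's own call the lincRNA share is 19.4% in MDAH controls and at most 12.1% in the other groups, and with the common floor it is 13.3% against at most 11.9%.

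The rule cut through a range of faint signals. The dimmest members, TCONS_l2_00024638, TCONS_00009753 and TCONS_00000506, had a mean log2 signal in their brightest group of -4.69, -4.68 and -4.67. The brightest lincRNA probes that failed the rule, TCONS_00010707, TCONS_l2_00003421 and TCONS_00004454, reached -2.69, -2.81 and -2.82 in a group but were well above background on only 1, 3 and 2 arrays in all.

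lincRNAs were dim in comparison with messenger RNAs, with a small bright fraction. The median log2 signal over the 8 arrays was -3.46 among detected lincRNAs and 0.31 among detected NM_ probes, and among those found on all 8 arrays it was -1.80 (529 lincRNAs) and 1.19 (15328 NM_ probes). Probes with TCONS_l2_ names were detected more often (370 of 1167, 31.7%) than those with plain TCONS_ names (946 of 4986, 19.0%), and on all arrays their median was -1.15 against -2.01. Of the 123 members with a mean signal above the 75th percentile of the array, 76 had TCONS_l2_ names, and this was so for all of the 10 brightest.

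The brightest lincRNA was TCONS_l2_00010291. Its signal was 9.03 and 9.08 in MDAH controls, 9.30 and 9.73 after silencing there, and 8.96 and 9.01 in control and 8.72 and 8.74 in silenced SKOV3 cells. Only 20 of the 29018 detected probes of all kinds had a higher mean. TCONS_l2_00009118, TCONS_l2_00030171, TCONS_l2_00016171 and TCONS_l2_00005546 followed with means of 8.83, 8.58, 8.47 and 8.38. The next were TCONS_l2_00030893, TCONS_l2_00003581, TCONS_l2_00000181, TCONS_l2_00014773 and TCONS_l2_00003853, between 7.77 and 7.21. None of the 10 passed the test between lines or on silencing, with adjusted p of at least 0.0506 between lines (TCONS_l2_00014773, MDAH minus SKOV3 0.59, standard error 0.21).

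The lincRNAs with a gene name covered several patterns. HOTAIR, a lincRNA from the HOXC cluster, was faint but detected on all 8 arrays, at -2.72 and -2.84 in MDAH controls, -2.65 and -2.0 after silencing there, and -2.73 and -2.93 in control and -2.85 and -2.05 in silenced SKOV3 cells. In both lines the higher silenced value was that of sh-SFPQ#3, and neither silencing change passed (adjusted p = 0.448 in MDAH and 0.552 in SKOV3 cells). GNASAS, the antisense transcript of the imprinted GNAS locus, was at -0.97 and -0.64 in MDAH controls and -0.72 and -0.45 in silenced MDAH cells, and it was not well above background on any SKOV3 array. It was at least 9.08-fold higher in MDAH than in SKOV3 controls, and the strand that its probe reads was not checked here. THRIL, a lincRNA that acts with hnRNPL on the TNF gene, was likewise detected in MDAH cells only, at -3.37 and -3.40 in controls and -3.69 and -3.46 after silencing, and was at least 1.44-fold higher there. LINC01374 was detected in MDAH controls alone, at -3.58 and -3.94. After silencing in MDAH cells its signal was -6.08 and -5.62, not well above background. The change did not pass in this line (adjusted p = 0.0580) but did in the average of both lines (adjusted p = 0.0461). No SKOV3 array called LINC01374 well above background. The average thus takes in background values and is not read as a fall in both lines. FOXCUT, the transcript upstream of FOXC1, lay between -4.19 and -2.71 over the arrays and was detected in all groups but SKOV3 controls, with no difference between the lines that passed (adjusted p = 0.936).

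The lines were then compared in the controls. A fold is given for a probe detected in both control groups, and only a bound for a probe with a control group at background. Of the 1316 members, 571 (43.4%) differed between MDAH and SKOV3 controls at an adjusted p under 0.05, 379 of them higher in MDAH and 192 higher in SKOV3 cells. Among all 29018 probes tested 51.8% differed, 25.9% in each direction. For 323 of the 571 a control group had no array well above background, so that their fitted difference includes values at background. Of 210 differing members that were detected in both control groups, 110 were higher in MDAH and 100 higher in SKOV3 cells.

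Members on all 8 arrays differed less often than messenger RNAs of the same brightness. Of 529 lincRNAs 166 (31.4%) passed, 99 higher in MDAH and 67 higher in SKOV3 cells, against 51.8% of 15328 NM_ probes. Binned by mean log2 signal the shares were 16.7% of lincRNAs and 22.2% of NM_ probes between -4 and -3, 32.0% and 40.3% between -3 and -2, 38.8% and 54.1% between -2 and 0, and 27.6% and 52.7% above 0. The median absolute log2 difference over all these probes was 0.43 for lincRNAs and 0.64 for NM_ probes. The gap between the 2 arrays of a control group had a median of 0.19 in MDAH and 0.20 in SKOV3 cells for lincRNAs, and of 0.16 and 0.13 for NM_ probes. Probes are not replicates, and the difference between the 2 kinds of probe was given no test.

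The lincRNA furthest above SKOV3 levels among those detected in both control groups was TCONS_l2_00027739. It stood at 4.53 and 4.01 in MDAH controls and at -0.07 and 0.28 in SKOV3 controls, a log2 difference of 4.17 (standard error 0.40, adjusted p = 0.000233) or 18.0-fold. TCONS_00003617 was at 1.37 and 0.80 in MDAH and -2.82 and -2.88 in SKOV3 controls, 15.3-fold apart (log2 difference 3.93, adjusted p = 0.000485). Both had higher values in silenced than in control SKOV3 cells (1.01 and 1.96 for the former, -0.94 and 0.25 for the latter), but these changes did not pass (adjusted p = 0.146 and 0.0574). TCONS_00021437 followed with 0.13 and 0.72 against -3.63 and -3.19, a 14.3-fold difference (adjusted p = 7.32e-05). TCONS_00020396 was 14.2-fold and TCONS_00027265 13.5-fold higher in MDAH controls (adjusted p = 0.00429 and 2.94e-05).

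In the other direction TCONS_00007196 was at 2.12 and 1.47 in SKOV3 controls and -3.05 and -2.93 in MDAH controls. This was a log2 difference of -4.79 (standard error 0.24, adjusted p = 1.73e-05), or 27.6-fold, and silencing left the order of the lines as it was, with 1.85 and 1.99 in silenced SKOV3 and -3.33 and -3.05 in silenced MDAH cells. TCONS_00001843 was 24.8-fold, TCONS_l2_00012889 20.1-fold, TCONS_00017433 17.5-fold and TCONS_00023266 10.9-fold higher in SKOV3 controls. Their adjusted p lay between 1.71e-05 and 0.000676. In MDAH controls TCONS_00001843 was at -4.23 and -3.94 and TCONS_00023266 at -4.14 and -3.98, close to the lowest signals called. All 10 lincRNAs named here for the line difference kept an adjusted p under 0.05 in each alternative processing they were part of and with each array left out. TCONS_00020396 and TCONS_00023266, which were not on all 8 arrays, were not part of the alternative restricted to such probes. The size of the log2 difference moved over the alternatives. It ranged from -5.33 to -2.98 for TCONS_00001843, from -3.78 to -1.81 for TCONS_00023266 and from 2.40 to 3.96 for TCONS_00027265. For TCONS_l2_00027739 it ranged from 3.90 to 4.43.

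**Figure D2:**
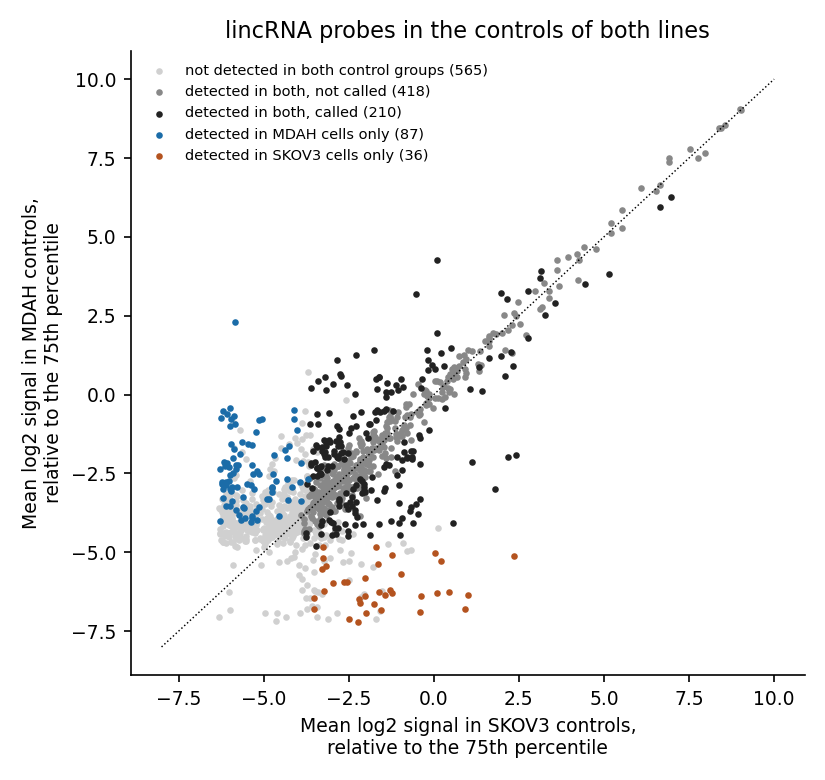
Mean log2 signal of each of the 1316 detected lincRNA probes in SKOV3 controls (x axis) and MDAH controls (y axis), with the 75th percentile of each array at 0, n = 2 arrays each. Points are coloured by whether both control groups detected the probe and whether it was called at an adjusted p under 0.05 (210 black points), and by detection in a single line (87 blue and 36 orange points). The dotted line marks equal signal, and values below about the lowest called signal of an array reflect background.

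Detection in a single line, taken as both groups of that line with both arrays well above background and no array of the other line, held for 87 lincRNAs in MDAH and 36 in SKOV3 cells. Together these were 9.35% of the members, against 5.24% of detected NM_ probes (664 in MDAH and 347 in SKOV3 cells). How the 2 kinds compared at like signal depended on how signal was taken. By the mean over all arrays, which is low where a line lacks the transcript, 14.2% of lincRNAs and 22.9% of NM_ probes below -4 were in a single line, 14.3% and 25.8% between -4 and -3, and 3.48% and 9.61% between -3 and -2. By the brightest group, it was 5.92% of lincRNAs and 10% of NM_ probes between -4 and -3, 16.9% of lincRNAs and 16.3% of NM_ probes between -3 and -2, 13.3% and 9.46% between -2 and 0, and 4.62% and 2.10% above 0. By the brightest group lincRNAs were thus below NM_ probes in the dim bin and above them in the bins over -2, so that no direction relative to messenger RNAs is given.

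For transcripts detected in a single line only a lower bound on the fold difference can be given. It had a median of 8.69 among the 36 SKOV3-only lincRNAs and 2.38 among the 87 MDAH-only lincRNAs, and it reached 10 in 15 and in 5 of them. The bounds rest on different floors, which were lower on the MDAH control arrays and let fainter probes into the MDAH list, so they do not rank the lines.

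In SKOV3 cells the leading transcript was TCONS_l2_00024609, at 2.23 and 2.47 in controls and 2.51 and 1.97 after silencing. On the MDAH arrays it lay between -6.64 and -5.03, so that it was at least 150-fold higher in SKOV3 than in MDAH controls. TCONS_00006577 (probe A_21_P0003145) was at 1.12 and 0.91 in SKOV3 controls and at -0.31 and -2.14 after silencing, and was at least 59.4-fold higher than in MDAH controls. TCONS_00006578 behaved alike, with 1.02 and 0.84 in controls and -0.29 and -1.86 after silencing, and a bound of 55.9-fold. The fall on silencing of these transcripts did not pass (adjusted p = 0.164 and 0.104). TCONS_l2_00012420 and TCONS_00018437 were at least 39.7-fold and 33.4-fold higher in SKOV3 controls.

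In MDAH cells TCONS_00022642 stood alone. It was at 2.46 and 2.16 in controls and 2.02 and 1.91 after silencing, and between -5.93 and -5.50 on the SKOV3 arrays, at least 78.7-fold higher in MDAH controls. TCONS_00020316, TCONS_00016144, TCONS_00026930 and TCONS_00017125 followed with bounds of 11.8-fold, 11.0-fold, 10.8-fold and 10.3-fold. TCONS_00020316, TCONS_00016144 and TCONS_00017125 were also lower after silencing in MDAH cells, as given below.

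Transcripts with neighbouring numbers in their names tended to differ between the lines in the same direction. Probes of the same transcript name had line differences that correlated at 0.976 (25 pairs among 32 probes). For names whose numbers were 1 apart the correlation was 0.557 (103 pairs), for 2 to 5 apart 0.415 (237 pairs), for 6 to 20 apart 0.103 (709 pairs), and for 101 to 500 apart 0.03 (14031 pairs). For the silencing change averaged over both lines the same correlations were 0.626, 0.365, 0.319, 0.01 and 0.00, and for the mean signal of names 1 apart -0.08. These pairs share probes and all come from the same 8 arrays, and the files do not say whether neighbouring numbers lie next to each other in the genome.

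Among 62 runs of 3 or more members with steps of at most 5 in number, 33 held at least 2 members that passed between the lines, and in 27 of these the members that passed were all higher in the same line. Of all 571 members that passed, 379 were higher in MDAH controls, so part of this sharing would arise without any link between neighbours. Some runs also hold several probes of the same transcript name, and members detected in a single line have their direction set by that detection. The count of runs was given no test. TCONS_00006576 to TCONS_00006585 was a run of 6 probes that were all higher in SKOV3 controls. The MDAH control signals lay between -6.99 and -4.74 and the SKOV3 control signals between -4.07 and 1.12, and none was detected on both MDAH control arrays. The 5 probes of TCONS_l2_00025953 to TCONS_l2_00025962 were all higher in MDAH controls, with signals between -4.76 and -1.40 there and between -6.34 and -2.79 in SKOV3 controls, where only TCONS_l2_00025962 was detected (log2 difference 0.85). So were the 4 probes of TCONS_l2_00014842 to TCONS_l2_00014848, between -4.34 and -0.41 in MDAH and between -6.36 and -3.33 in SKOV3 controls, where only TCONS_l2_00014844 was detected (log2 difference 2.80). Of the 4 probes of TCONS_l2_00008603 to TCONS_l2_00008611, 3 passed as higher in SKOV3 controls, and for TCONS_l2_00008603 and TCONS_l2_00008608, which both lines expressed above background, the log2 differences were -1.81 and -1.07. The transcript with most detected probes was TCONS_00016491, whose 5 detected probes did not pass between the lines (log2 differences from 0.00 to 0.35).

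**Figure D3:**
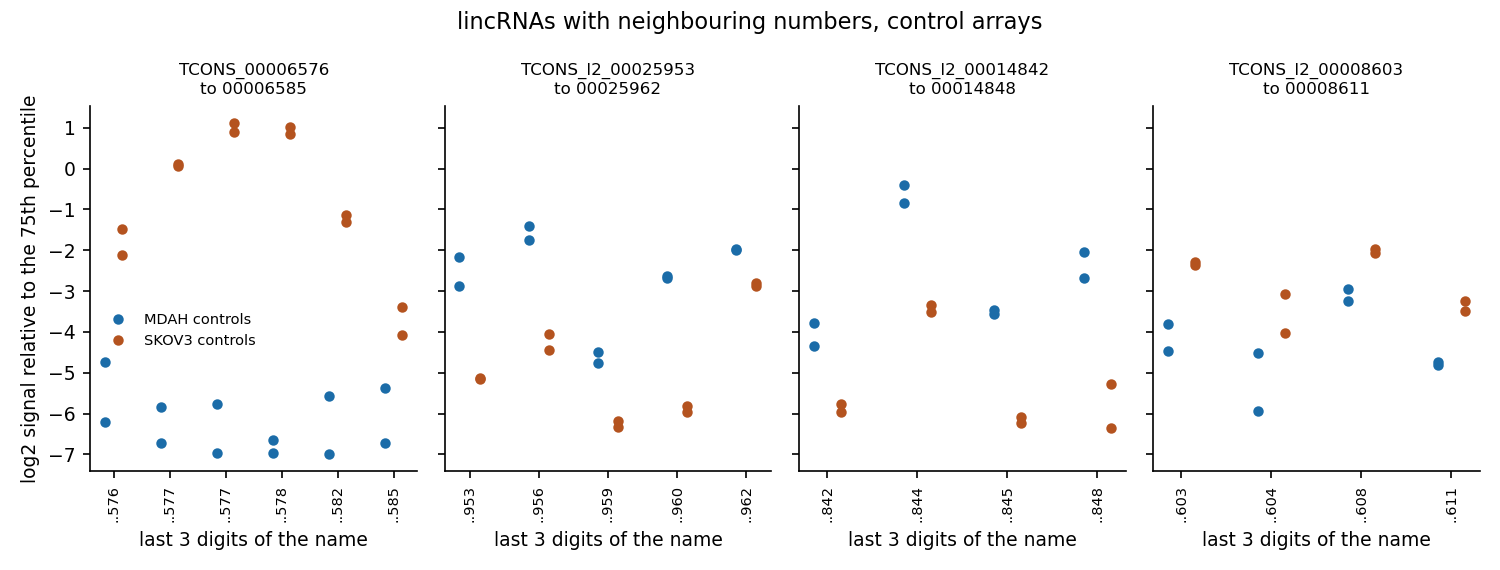
Log2 signal (75th percentile of each array at 0) of lincRNA probes in 4 runs of neighbouring transcript numbers, with 1 point for each MDAH control array (blue) and SKOV3 control array (orange), n = 2 each. The x axis gives the last digits of the transcript name. All probes of the first run lie higher in SKOV3 controls, those of the next 2 runs higher in MDAH controls, and 3 of the 4 in the last run passed as higher in SKOV3 controls.

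Silencing of SFPQ was examined next in each line. In MDAH cells 53 of the 1316 members (4.03%) passed, 5 higher and 48 lower, where 2.69% of all probes passed (0.582% higher and 2.11% lower). Of the 53, 39 were detected on both arrays of the control group only, 3 of the silenced group only, 10 of both groups (2 higher and 8 lower) and 1 of neither. Members that entered through MDAH controls alone could be fainter than the silenced arrays call, since the floor was -4.87 and -4.89 on the control and -4.30 and -3.81 on the silenced arrays. For the 37 with a control array and no silenced array well above background, a bound above 1-fold could be given in 25, with a median of 1.71 and a highest value of 4.11, and in the other 12 the control signal did not exceed the floor of the silenced arrays. Further, of the 529 members on all arrays 5 passed (0.945%), against 1.01% of NM_ probes on all arrays. The count rested on single arrays. It fell sharply without either MDAH control and rose without MDAH sh-SFPQ#2, and the count over all probes did the same. At an unadjusted p under 0.05 there were 257 members with all arrays. This count was not taken over all probes, so no excess is read from it.

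In SKOV3 cells 30 members (2.28%) passed, 9 higher and 21 lower, where 1.3% of all probes passed (0.517% higher and 0.786% lower). Of these, 11 were detected on both arrays of the control group only, 5 of the silenced group only, 4 of both groups (2 higher and 2 lower) and 10 of neither. With at least 1 control array and no silenced array well above background there were 14, with bounds of 1.18-fold to 5.89-fold. The reverse held for 7, of which 6 had a bound above 1-fold and up to 4.67-fold, and 5 had no SKOV3 array well above background and get no fold. The count fell sharply when any single control array of either line was left out, and fell without SKOV3 sh-SFPQ#3. It rose without SKOV3 sh-SFPQ#2, and the count over all probes moved in the same way each time. With the SKOV3 arrays alone in the limma fit 0 members and 0 of all 29018 probes passed. In that fit 205 members were at an unadjusted p under 0.05, a count that was not taken over all probes.

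TCONS_00014163, detected on all 8 arrays, fell in both lines. Its level was -1.59 and -1.66 in MDAH controls and -3.23 and -3.31 with sh-SFPQ#2 and sh-SFPQ#3. The SKOV3 arrays gave -1.29 and -1.78 in controls and -3.26 and -3.41 after silencing. In each line both silenced values lay below both controls, and the arrays with the 2 shRNAs were within 0.15 of each other. The log2 change was -1.64 (standard error 0.20, adjusted p = 0.0134) in MDAH cells and -1.80 (standard error 0.20, adjusted p = 0.0172) in SKOV3 cells. Averaged over the lines it was -1.72 (standard error 0.14, adjusted p = 0.00341), or 3.30-fold, and this average passed in each of 19 alternatives, with log2 changes of -1.84 to -0.97. Within a line the call was lost when some arrays were left out, for MDAH cells with an adjusted p of 0.149 without MDAH control 1. For SKOV3 cells it was 0.134 with the SKOV3 arrays alone.

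Altogether 10 members passed in both lines, and all 10 were lower in both. They were 18.9% of the members called in MDAH cells and 33.3% of those called in SKOV3 cells, and among all probes the 124 called in both lines were 15.9% and 32.8%. The lines had no arrays in common but were silenced with the same shRNAs. They were also fitted together, so each probe had the same standard error in both lines. A probe with a small pooled spread could thus pass more easily in both, and the calls in the lines were not independent. With each line fitted alone, 39 members and 532 of all 29018 probes passed in MDAH cells. In SKOV3 cells 0 members and 0 of all probes passed. The 10 members called in both lines were singled out after their values were seen. Apart from TCONS_00014163 none of them was detected on both arrays of a silenced group. In the controls of both lines only TCONS_l2_00028295, TCONS_l2_00012072 and TCONS_l2_00014795 were detected besides it, and the 6 others were detected in MDAH controls alone. Apart from TCONS_00014163 the members called in both lines thus entered through controls, which left a fall as the direction open to them. The 124 probes of all kinds were not split by direction, so the shared direction is not read as agreement between the lines. TCONS_l2_00028295 was at -2.11 and -2.38 in MDAH controls and -2.11 and -2.34 in SKOV3 controls. After silencing it was at -4.77 and -4.44 in MDAH and at -4.0 and -4.22 in SKOV3 cells. It was thus at least 3.5-fold lower in silenced MDAH cells (adjusted p = 0.00662) and at least 3.68-fold lower in silenced SKOV3 cells (adjusted p = 0.0160). TCONS_l2_00014795 was at -2.83 and -2.71 in MDAH and -3.23 and -3.20 in SKOV3 controls and between -6.36 and -5.52 in the silenced samples, with bounds of 2.43-fold and 1.89-fold. The others were TCONS_00001208, TCONS_00014218, TCONS_00025573, TCONS_00026498, TCONS_l2_00003634, TCONS_l2_00012072 and TCONS_l2_00018962.

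Among the transcripts named for MDAH cells, several were detected in that line alone. TCONS_00017125 was at -0.50 and -0.75 in controls and at -2.42 and -3.46 after silencing, a 4.98-fold fall (log2 change -2.32, standard error 0.33, adjusted p = 0.0210). TCONS_00016144 was at -0.40 and -0.64 in controls and at -1.89 and -2.62 after silencing, a 3.33-fold fall (adjusted p = 0.0239). TCONS_00020316 fell 2.50-fold and TCONS_l2_00030116 2.44-fold (adjusted p = 0.0237 and 0.0170). In these 4 transcripts both shRNAs gave values below both controls. The 2 that rose were TCONS_00014242, from -3.88 and -3.94 to -2.43 and -2.04 (3.19-fold, adjusted p = 0.0426), and TCONS_00018589, from -0.65 and -0.48 to 0.77 and 0.58 (2.36-fold, adjusted p = 0.0221). Without MDAH control 1 none of these 6 passed (adjusted p of 0.171 to 0.270).

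The largest bound in MDAH cells was that of TCONS_00019257, which was at -2.09 and -1.94 in controls and at least 4.11-fold lower after silencing (adjusted p = 0.0411). An adjusted p beside such a bound is that of the fitted change, which includes values at background, and does not test the bound. TCONS_00007223 was at -1.93 and -2.15 in MDAH controls and at -5.04 and -4.66 after silencing, at least 4.03-fold lower (adjusted p = 0.00351). In SKOV3 cells, where it was detected in both groups, TCONS_00007223 was at -2.71 and -2.59 in controls and -3.53 and -3.47 after silencing, and its change of -0.86 did not pass (adjusted p = 0.0899).

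In SKOV3 cells TCONS_00027300 rose from -4.0 and -3.44 to -1.93 and -1.34, 4.24-fold (log2 change 2.08, standard error 0.30, adjusted p = 0.0317). In MDAH cells its change was 0.36 (adjusted p = 0.523). TCONS_l2_00024711, with a signal far above the median of the lincRNAs, rose from 6.52 and 6.53 to 7.83 and 7.55, 2.24-fold (adjusted p = 0.0363). TCONS_l2_00001506, detected in SKOV3 cells alone, fell 2.65-fold, from -1.63 and -1.89 to -3.46 and -2.88 (adjusted p = 0.0457), a call held in 4 of 17 alternatives. The largest bounds were for TCONS_00023505, at -1.72 and -1.42 in controls and at least 5.89-fold lower after silencing (adjusted p = 0.00215), and TCONS_00006576, at least 5.04-fold lower (adjusted p = 0.0285). TCONS_00029224 was detected only after silencing in this line, at -1.30 and -2.22, and was at least 4.67-fold higher (adjusted p = 0.0303).

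Averaged over both lines 90 members (6.84%) passed, 18 higher and 72 lower, where 6.46% of all probes passed (2.33% higher and 4.13% lower). Of the 529 lincRNAs on all arrays 16 passed (3.02%), 10 higher and 6 lower, against 4.48% of NM_ probes on all arrays. The share among all members was thus near that of all probes. The same shRNAs were used in both lines. With the shRNA number as a covariate 179 members and 4425 of all 29018 probes passed. With a replicate block 136 members and 3089 of all probes did. The count of 90 fell sharply when any single control array or SKOV3 sh-SFPQ#3 was left out, and so did the count over all probes.

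Besides TCONS_00014163, TCONS_l2_00003640 fell 2.41-fold on average, TCONS_l2_00013180 2.01-fold, TCONS_l2_00003633 1.69-fold and TCONS_00003612 1.69-fold (adjusted p = 0.0453, 0.0205, 0.0220 and 0.0479). The fall of TCONS_00003612 was mainly in MDAH cells (log2 change -1.28, adjusted p = 0.0448), and in SKOV3 cells its change was -0.24 (adjusted p = 0.621). TCONS_l2_00013180 was at -1.98 and -1.58 in MDAH controls and -2.95 and -2.62 after silencing, and at -2.27 and -1.89 in SKOV3 controls and -3.13 and -3.07 after silencing. TCONS_l2_00003633, brighter than most lincRNAs, went from 3.30 and 3.26 to 2.80 and 2.68 in MDAH cells and from 2.99 and 2.96 to 2.17 and 1.82 in SKOV3 cells. The rises were of TCONS_00014242 (2.63-fold, adjusted p = 0.0187), TCONS_00027300 (2.33-fold, adjusted p = 0.0246), TCONS_00013319 (2.01-fold, adjusted p = 0.0392), TCONS_00018768 (1.95-fold, adjusted p = 0.0239) and TCONS_00018589 (1.95-fold, adjusted p = 0.0123). TCONS_00018768 was at -0.14 and 0.15 in MDAH controls and 0.65 and 1.08 after silencing, and at -0.60 and -0.65 in SKOV3 controls and 0.24 and 0.66 after silencing. Without MDAH control 1 or 2, each of these 9 transcripts lost its call in at least 1 of the fits.

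**Figure D4:**
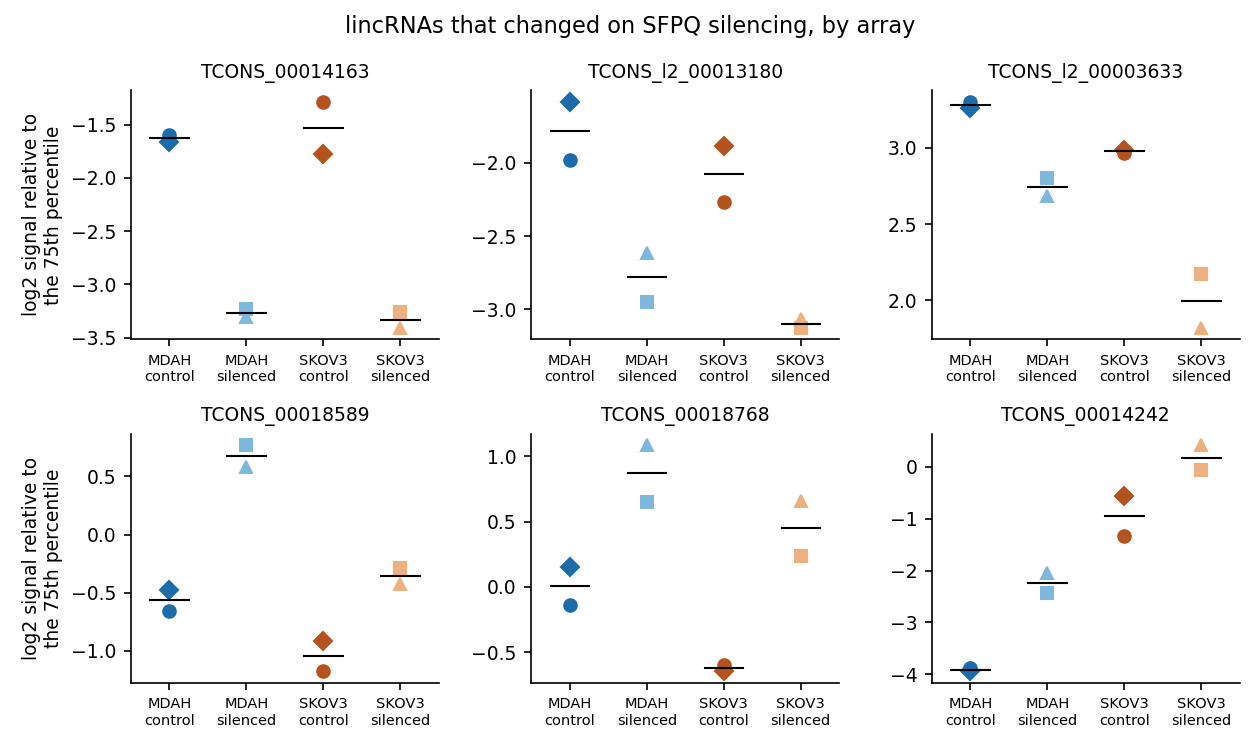
Log2 signal of 6 lincRNAs, relative to the 75th percentile, on each of the 8 arrays (controls 1 and 2 as circle and diamond, sh-SFPQ#2 and sh-SFPQ#3 as square and triangle), with the mean of each group of 2 as a line. In the upper row both silenced arrays lie below both controls in each line, and in the lower row they lie above them.

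The bulk of lincRNAs moved little. The median change of the 529 members on all arrays was 0.06 in MDAH and 0.04 in SKOV3 cells on the log2 scale, and over the pairs of a silenced and a control array it ranged from -0.11 to 0.22 and from -0.07 to 0.13. For NM_ probes on all arrays the medians were 0.14 and -0.04. In MDAH cells the lincRNA median was below that of NM_ probes with the scaling used here, and above it with quantile normalization (0.095 against 0.083), so that no direction relative to messenger RNAs is given. The median absolute change was 0.23 in each line for lincRNAs and 0.27 and 0.24 for NM_ probes. The 2 arrays of a silenced group differed by a median of 0.34 in MDAH and 0.27 in SKOV3 cells.

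**Figure D5:**
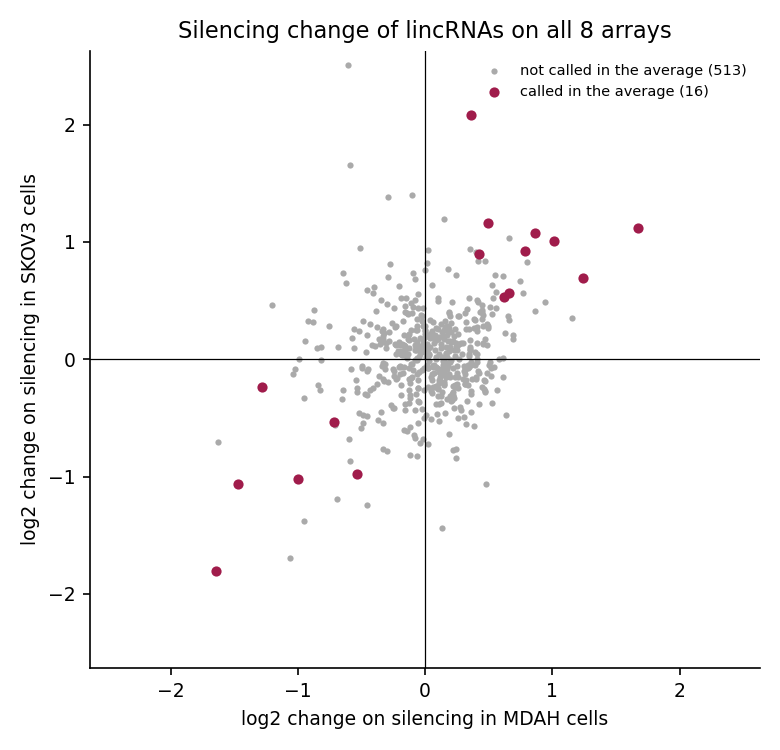
Log2 change on SFPQ silencing in MDAH cells (x axis) and SKOV3 cells (y axis) for the 529 lincRNA probes detected on all 8 arrays. The 16 probes called in the average of both lines (adjusted p under 0.05) are in dark red, 10 in the upper right and 6 in the lower left, and TCONS_00014163 is the lowest on the x axis.

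The difference of the silencing change between the lines passed for 5 members (0.380%), with MDAH minus SKOV3 positive in 2 and negative in 3 (4 and 3 with arrays centred on their median, 2 and 6 with the percentile over probes on all arrays, 2 and 8 with quantile normalization). Of all probes 0.145% passed, 0.0689% positive and 0.0758% negative. None of the 5 was detected on both arrays of more than 1 group, and no lincRNA on all arrays passed (smallest adjusted p = 0.109). The 3 with the smallest adjusted p were TCONS_00023505 (5.46, adjusted p = 0.0150), TCONS_00023520 (3.43, adjusted p = 0.0183) and TCONS_l2_00019712 (-3.15, adjusted p = 0.0339). The first pair was detected in SKOV3 controls alone and TCONS_l2_00019712 in silenced SKOV3 cells alone, at -1.84 and -2.20, where it was at least 3.91-fold higher than in SKOV3 controls. At an unadjusted p under 0.05 there were 207 members, a count that was not taken over all probes, so no excess is read from it.

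Genes that act on nuclear RNAs were measured alongside, each by its brightest probe. MALAT1 had 8 probes and NEAT1 4, for example, and the dimmer ones were not examined. Of 22 listed genes (NONO, PSPC1, NEAT1, MALAT1 and members of NEXT, PAXT and the exosome) none passed on silencing in either line, and in the average 1 rose, DIS3, an exosome nuclease with a signal close to background (0.74, standard error 0.15, adjusted p = 0.0408). NEAT1 was at 6.02 and 6.26 in MDAH controls and 6.56 and 6.45 after silencing, and at 5.44 and 5.6 in SKOV3 controls and 6.08 and 6.44 after silencing, with an average change of 0.56 that did not pass (adjusted p = 0.0623). Between the lines 4 of the 22 were higher in MDAH and 5 higher in SKOV3 controls. Among all 29018 probes tested, the passing share was 51.8% between lines and 6.46% for averaged silencing. For silencing within a line it was 2.69% (MDAH) and 1.3% (SKOV3). With so few genes listed, neither an excess nor a lack of calls is read from these counts.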

How the data were processed

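Total RNA of 8 samples was labelled with Cy3 and hybridized to single-colour Agilent arrays. The authors deposited the Feature Extraction output of each array, with the background-subtracted intensity of every spot on a linear scale (version 11.5.1.1 in the headers, 10.7.3.1 in the submitters' processing notes, array design on hg19), and a table of log2 values, which equalled quantile-normalized signals minus each probe's median (correlation over 0.9999 on every array, column medians from -0.03 to 0.01) and was used as an alternative. Detection flags are those of the software.

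From 58717 non-control spots of each array, spots marked as outliers (209 to 310 per array) were dropped, the log2 intensity was averaged over spots of the same probe, and the array's 75th percentile was subtracted. No probe was saturated. Probes detected on both arrays of a group (29018) were fitted with limma 3.58.1 in R 4.3.3 as 4 group means with contrasts, and p-values were adjusted over all of them by Benjamini-Hochberg, with the threshold at 0.05. The prior had 2.76 degrees of freedom. Precision is limited by the small number of arrays. Tables and figures were made with Python 3.11.15 (pandas 2.3.3, matplotlib 3.10.9). In simulated data, 200 of 29018 probes changed by 2 on the log2 scale were recovered to 60.5% between lines, 57% in MDAH and 62.5% in SKOV3 cells, with 6, 5 and 6 false calls.

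Where a group had no array well above background, "at least N-fold" sets the brighter group's mean against, per array, the larger of the probe's signal and the lowest signal called well above background. A change with a bound under 1, or with neither group detected, gets no fold. An adjusted p beside a bound is that of the fitted change, which includes background values, and does not test the bound. Members that entered through the brighter group alone had their direction set by that.

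Named transcripts were the 10 brightest, up to 5 highest and 5 lowest per contrast among those passing, detected in all groups compared and with groups apart, the 5 with the largest bound in each line, those next to the detection rule, and those with a gene name. For the difference between lines none qualified and the 3 smallest adjusted p were named. Marker genes and the other listed genes were each read from the probe with the highest mean signal. Genomic intervals, strands and loci were not analysed here, so transcript names with several probes stood in for loci. Members, lists and tests were chosen with earlier results of these data known. Alternatives were other scalings, detection rules, test settings, a replicate block and leaving out each array, and the common floor and the neighbouring numbers were chosen after seeing the data. Controls 1 and 2 share only a number across lines, whereas sh-SFPQ#2 and sh-SFPQ#3 are the same shRNAs in both. The correlation of their deviations over 29018 probes was 0.0707 and 0.350.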

Additional observations from a re-analysis of the deposited data

Results flagged for a closer look

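For 5 lincRNAs the test of the difference in silencing change between the lines passed, with MDAH minus SKOV3 values of -3.17 for TCONS_00013626, -2.53 for TCONS_00017540, 5.46 for TCONS_00023505, 3.43 for TCONS_00023520 and -3.15 for TCONS_l2_00019712 on the log2 scale. All 5 were detected on both arrays of a single group: TCONS_00013626 and TCONS_00017540 in MDAH controls, TCONS_00023505 and TCONS_00023520 in SKOV3 controls, and TCONS_l2_00019712 after silencing in that line. The fitted differences therefore include values at background and are not folds. TCONS_00023505 was at -1.72 and -1.42 in SKOV3 controls, at -6.13 and -6.29 after silencing and between -6.88 and -5.80 on the MDAH arrays. The calls passed in 9, 3, 11, 10 and 10 of 18 alternatives, in the order given first, and in none of the 5 with the intensity trend in limma.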

How the results depend on the processing

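The line difference called 401 to 607 members with single arrays left out, 186 among probes on all 8 arrays and 2314 of all 6153 lincRNA probes with no filter, 1846 of them lower in MDAH cells. For silencing in MDAH cells the range with arrays left out was 0 to 90, with 31 under normexp and quantile normalization and 5 on all arrays. In SKOV3 cells it was 6 to 57, with 9 without filter, 6 on all arrays and 0 with SKOV3 arrays alone. In the average it was 19 to 129, with 40 without filter, 23 on all arrays, 136 with the replicate block and 179 with the shRNA number as a covariate. For the difference between lines it was 0 to 16, with 8 under the percentile over probes on all arrays, 10 under quantile normalization, 10 with the deposited table, and 0 with normexp, no filter, all arrays, intensity trend or replicate block. The replicate block gave 631 members between lines. Centring on the median moved the median of all probes from 0.01 to -0.14 between lines and from 0.07 to 0.18 in MDAH silencing, and the percentile over probes on all arrays moved them to 0.21 and -0.05. Detected members numbered 3607 by the flag for positive and significant signal and 2099 with 1 array of a group, and those in a single line 272 with 1 array and 499 in controls alone. The medians on all arrays moved by less than their spread in each alternative (MDAH -0.07 to 0.19 and SKOV3 -0.03 to 0.08 with arrays left out). Of 561 values for named lincRNAs none reversed, 434 passed and 127 did not. All 127 were silencing values, as each value for the line difference passed. The counts over all probes also moved. Between lines 20969 of 50599 passed with no filter and 10905 of 20715 on all 8 arrays. In MDAH silencing 1326 of 29018 passed under normexp, and in SKOV3 silencing 0 with its arrays alone. In the average 3089 passed with the replicate block and 4425 with the shRNA number as a covariate. The cause of these shifts was not tested. The planned analysis of intervals with signal on 1 strand was not run.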
